A study of Arabidopsis thaliana with 18 samples.

Results

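The wall-associated kinases (WAKs) of Arabidopsis thaliana were followed through 18 rosette RNA-seq libraries. The 6 genes were chosen by name: WAK1 (AT1G21250), WAK2 (AT1G21270), WAK3 (AT1G21240), WAK4 (AT1G21210) and WAK5 (AT1G21230), which are neighbouring copies on chromosome 1, and the related WAKL10 (AT1G79680). They are 6 of the 37336 gene rows counted. Of the 6 genes, 5 had reads and passed the filter on low counts in both sequencing stages, and WAK5 had no read in any library.

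WAKs are receptor-like kinases that span the plasma membrane. Their extracellular part binds pectin in the cell wall, and their cytoplasmic part is a protein kinase. WAK1 is known as a receptor for oligogalacturonides, the pectin fragments released when a wall is damaged or attacked, and as a gene induced by pathogens and by salicylic acid, a defence hormone. WAK2 is known for its part in pectin signalling and in cell expansion.

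Whole rosettes were collected 21 days after sowing from plants kept at 21 °C in a day of 16 h light and 8 h dark, with a move to soil on day 14, and each library was a pool of 6 to 10 plants. In the first sequencing stage were C24, Ler and the F1 hybrid C24 x Ler of these accessions, together with Ler NahG (3 libraries a group). Sequenced later were C24 NahG 2 and C24 NahG 3, which are independent transgenic lines, and the C24 controls sequenced with them, labelled C24B (2 libraries a group). NahG is a bacterial salicylate hydroxylase that breaks down salicylic acid, and the promoter that drives it is not given in the sources used here. C24, C24B, Ler (accession Ler-0) and the hybrid are wild type by their labels.

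The first-stage libraries held 22446656 to 25706088 reads in genes and the later ones 28132721 to 32465711. Levels are CPM, the share of a library's reads scaled to a common total and for library composition, given as mean ± SD over libraries. Log2 fold changes are given with a standard error (SE) and an adjusted p from the quasi-likelihood test of edgeR, and a gene was called where that p was under 0.05. All fold changes are within 1 stage, except for a difference of fold changes between accessions. PR1 (AT2G14610), a gene that needs salicylic acid for its expression, was used to check the NahG labels. It was at 915 ± 249 CPM in C24B (n = 2), 0.471 ± 0.073 in line 2 (n = 2) and 0.339 ± 0.0429 in line 3 (n = 2), and at 12.7 ± 13.7 CPM in Ler (n = 3) and 1.29 ± 0.425 in Ler NahG (n = 3). The check is weaker in Ler, where PR1 was not called. Its Ler libraries were at 28.4, 6.44 and 3.25 CPM, and those of Ler NahG at 0.989 to 1.77 CPM. The rosette leaf list, with genes such as RBCS1A and CAB1, summed to between 37710 and 69940 CPM per library, and all 7 of its genes had reads in every group.

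WAK1 to WAK5 lie on the plus strand within 24780 bases. In RefSeq coordinates of build TAIR10.1, WAK4 is at chr1:7423704-7427041, WAK5 at chr1:7429895-7432477, WAK3 at chr1:7434235-7436830, WAK1 at chr1:7439171-7442113 and WAK2 at chr1:7444749-7448483. WAKL10 is far from them, at chr1:29979973-29982819 on the minus strand. The coding sequences of the neighbours were 80.3% to 86.3% identical to each other, with WAK1 and WAK3 the closest pair, and 65% to 65.9% identical to WAKL10. A read or read pair lying wholly within a stretch they share could not be placed on 1 copy by sequence alone. The longest such stretch, 127 coding bases in the exons of WAK1 and WAK3, is shown for all 5 neighbours because it shows how alike the copies are. Capitals mark bases that differ from WAK1.
WAK1, chr1:7441612-7441738: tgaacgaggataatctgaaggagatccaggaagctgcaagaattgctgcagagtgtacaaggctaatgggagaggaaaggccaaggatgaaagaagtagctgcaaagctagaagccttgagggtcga
WAK3, chr1:7436422-7436548: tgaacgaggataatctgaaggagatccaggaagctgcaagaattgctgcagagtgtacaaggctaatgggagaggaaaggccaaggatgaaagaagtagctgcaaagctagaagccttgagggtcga
WAK2, chr1:7447059-7447185: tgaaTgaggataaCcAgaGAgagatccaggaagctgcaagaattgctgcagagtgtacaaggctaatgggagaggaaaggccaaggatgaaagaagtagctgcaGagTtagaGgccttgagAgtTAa
WAK5, chr1:7432069-7432195: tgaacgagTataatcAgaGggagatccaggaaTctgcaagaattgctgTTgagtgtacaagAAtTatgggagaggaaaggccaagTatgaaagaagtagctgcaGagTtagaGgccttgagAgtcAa
WAK4, chr1:7426755-7426881: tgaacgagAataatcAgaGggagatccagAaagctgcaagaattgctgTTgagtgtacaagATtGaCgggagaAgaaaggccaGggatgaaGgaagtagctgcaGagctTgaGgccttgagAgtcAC
WAK3 matched WAK1 at every base, and WAK2 differed at 11, WAK5 at 15 and WAK4 at 19 of the 127 positions. Counted over the exons, 13.4% of all 50-base windows of WAK3 and 7.4% of those of WAK1 were also found elsewhere in the genome. For WAK2 the share was 3.78%, for WAK4 0.895%, for WAK5 0.484% and for WAKL10 0. The deposited counts set apart 1.37% to 2.42% of reads as mapping to several places. WAK2 also overlaps AT1G21280 on the opposite strand by 994 bases, at chr1:7447490-7448483, which is the whole of that gene. AT1G21280 had 0 reads in every group. With the strand setting not given, reads there may have been set apart as ambiguous, so this 0 does not show that WAK2 kept them. Reads of both accessions were counted against 1 reference genome, and sequence differences of C24 or Ler within these genes were not analysed here.

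The promoters of the 4 members with called changes are shown because WRKY and TGA transcription factors, which act in the salicylic acid response, are known to bind short motifs. Each is the 250 bases before the annotated gene start, from the RefSeq TAIR10.1 genome, read 5′ to 3′ along the gene. Capitals mark the W-box core TTGAC and the TGA core TGACG, searched on both strands, so that a match on the opposite strand reads GTCAA or CGTCA.
WAK1, chr1:7438921-7439170, plus strand: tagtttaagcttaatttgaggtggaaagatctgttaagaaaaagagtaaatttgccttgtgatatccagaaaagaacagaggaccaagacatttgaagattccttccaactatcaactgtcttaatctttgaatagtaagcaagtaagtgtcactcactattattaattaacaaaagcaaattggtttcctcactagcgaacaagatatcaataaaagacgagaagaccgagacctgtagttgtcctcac
WAK2, chr1:7444499-7444748, plus strand: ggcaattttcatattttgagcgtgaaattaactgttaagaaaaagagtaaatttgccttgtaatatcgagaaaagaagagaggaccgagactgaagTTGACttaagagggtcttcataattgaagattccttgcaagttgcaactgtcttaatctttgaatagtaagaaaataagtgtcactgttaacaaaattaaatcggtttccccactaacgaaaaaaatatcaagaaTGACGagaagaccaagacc
WAK3, chr1:7433985-7434234, plus strand: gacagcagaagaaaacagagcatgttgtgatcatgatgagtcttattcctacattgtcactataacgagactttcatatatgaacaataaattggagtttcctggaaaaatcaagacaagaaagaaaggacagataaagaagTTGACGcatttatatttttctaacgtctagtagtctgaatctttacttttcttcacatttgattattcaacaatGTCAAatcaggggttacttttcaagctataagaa
WAKL10, chr1:29982820-29983069, minus strand: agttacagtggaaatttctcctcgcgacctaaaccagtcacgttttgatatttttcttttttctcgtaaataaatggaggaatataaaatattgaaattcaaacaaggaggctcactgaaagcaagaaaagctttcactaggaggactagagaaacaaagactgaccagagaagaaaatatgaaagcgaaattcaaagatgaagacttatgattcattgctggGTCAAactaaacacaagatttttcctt
The WAK1 window held neither motif. WAK2 had 1 W-box core at 154 and 1 TGA core at 19 bases before the start. WAK3 had W-box cores at 108 and 34 bases and a TGA core at 107 bases that overlaps the first of them, and WAKL10 had 1 W-box core at 27 bases. Among the 250-base windows of 27443 promoters, 44.9% held TTGAC and 18.6% held TGACG, each on either strand. The WAK1 and WAK2 windows were 86% identical over 221 aligned bases, against 57.6% to 68.7% for all other pairs of the 6 genes.

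Per length of exon, the WAKs spanned a wide range in a C24 rosette. WAK1 was at 196 ± 12.2 CPM per kb in C24 (n = 3), WAK2 at 80.2 ± 6.82, WAK3 at 14.8 ± 1.59, WAKL10 at 1.44 ± 0.417 and WAK4 at 0.253 ± 0.0697. WAK1 and WAK2 together held 95.7% to 99.8% of the reads of WAK1 to WAK5 in every library. WAK5 had 0 reads out of 461840482 over the 18 libraries, which allows a level of up to 0.00648 CPM, a limit that covers counting error only. In Ler the leading genes were level on this scale, WAK1 at 15.8 ± 4.58 CPM per kb and WAK2 at 15.7 ± 5.62 (n = 3 each). The scale divides by exon lengths in TAIR10.1, 2770 bases for WAK1 and 3585 for WAK2, which may differ from those used in counting. Before that division WAK2 was the higher in Ler, at 56.4 ± 20.1 CPM against 43.9 ± 12.7 for WAK1. If reads in the 994 bases that WAK2 shares with AT1G21280 were set apart, the WAK2 levels per kb are too low. In Ler NahG WAK2 led, at 8.18 ± 0.226 CPM per kb against 1.35 ± 0.576 for WAK1.

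**Figure D1:**
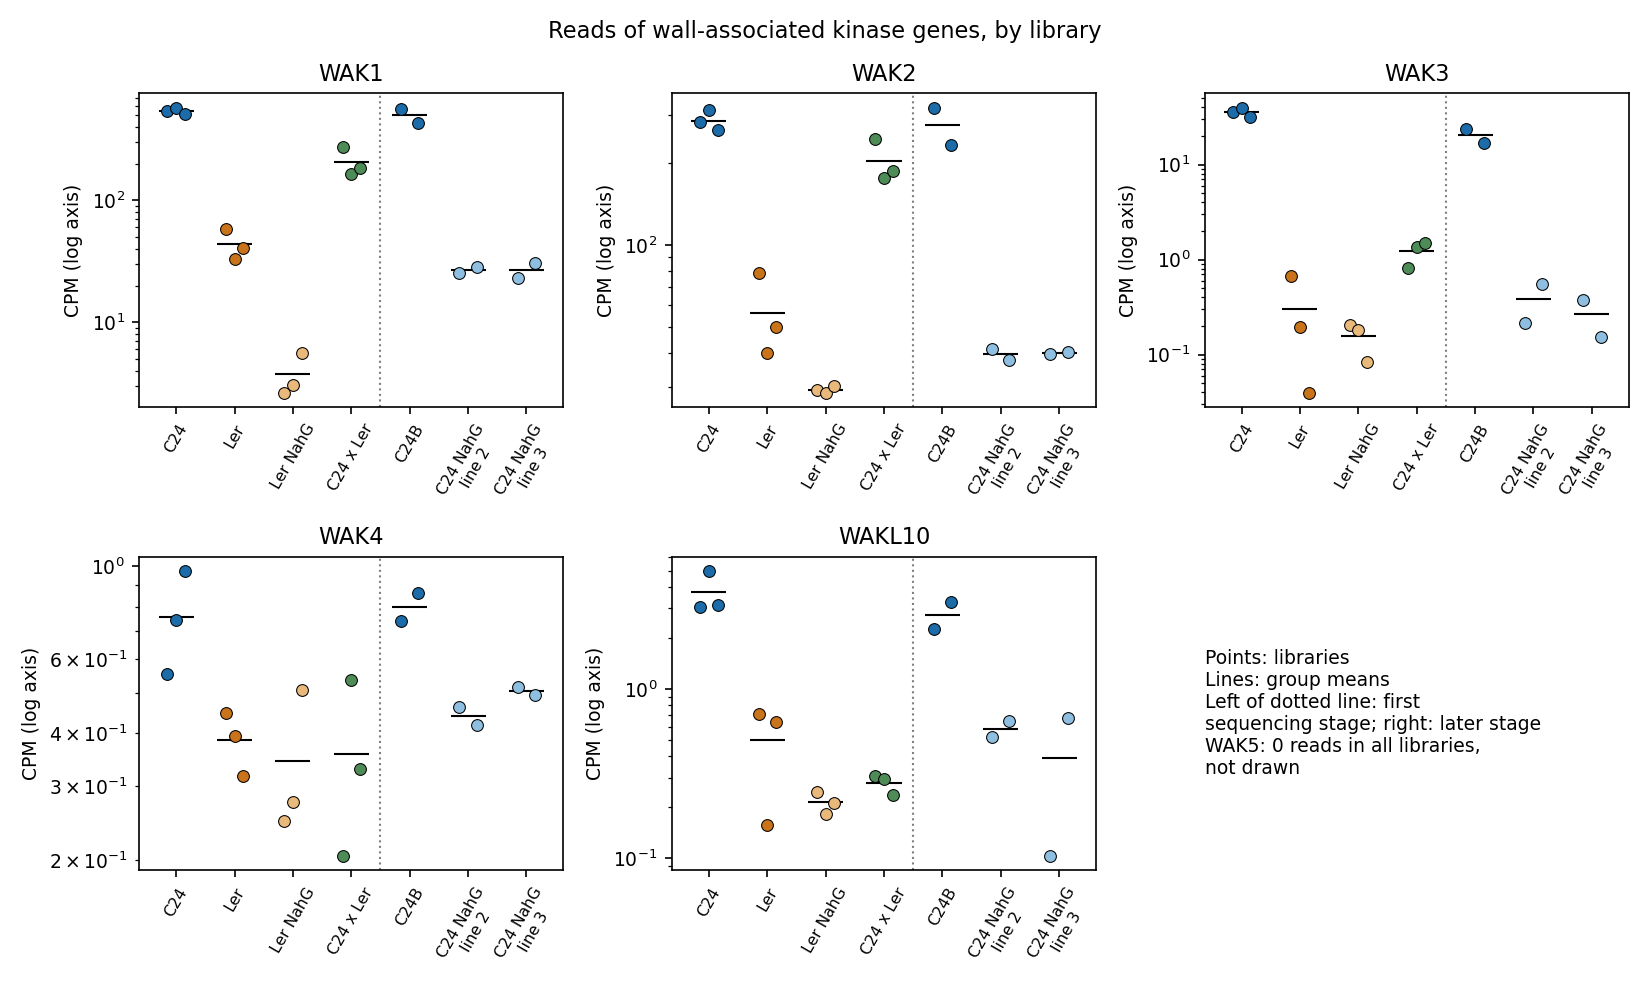
Levels of WAK1, WAK2, WAK3, WAK4 and WAKL10 in each library, in CPM on a log axis. Points are libraries, short lines are group means and the dotted line separates the sequencing stages, and the highest levels of every gene shown are in C24 or C24B.

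C24 against Ler asks how far the parental accessions differ. Of the 5 tested members, 4 were higher in C24 and none was lower, while 22.6% of all 20325 genes tested were higher, 19.8% lower and 42.5% called in either direction. WAK4 and WAKL10 passed the filter through their C24 reads, and did not pass it in Ler with Ler NahG or in Ler with the hybrid. For these genes a lower call in C24 could hardly arise, so the count is partly set by the filter. WAK1, the oligogalacturonide receptor, was at 541, 578 and 510 CPM in the 3 C24 libraries and at 57.8, 33.0 and 40.8 CPM in the 3 Ler libraries. Every C24 library was far above every Ler library, and the log2 fold change was 3.63 (SE 0.29, adjusted p = 1.3e-06), with SD 33.9 CPM in C24 and 12.7 in Ler. WAK2, the expansion-linked copy, was at 284, 313 and 265 CPM in C24 and at 78.9, 40.1 and 50.1 CPM in Ler. The groups did not overlap here either, with a smaller log2 fold change of 2.35 (SE 0.21, adjusted p = 4.32e-06).

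WAK3 had the largest difference of the members between the parents. It was at 35.5, 39.7 and 32 CPM in C24, and at 0.671, 0.197 and 0.0397 CPM in Ler, which is 15, 5 and 1 reads. The Ler libraries were near the level of a few reads and far below every C24 library (log2 fold change 6.92, SE 0.43, adjusted p = 1.94e-07). Without Ler replicate 1, which held 15 of the 21 Ler reads, the log2 fold change was 8.17. WAKL10, a WAK-like kinase, was at 3.07, 4.97 and 3.13 CPM in C24 and at 0.715, 0.158 and 0.635 CPM in Ler. It too was higher in every C24 library (log2 fold change 2.89, SE 0.40, adjusted p = 0.00012). WAK4 was at 0.555, 0.744 and 0.971 CPM in C24 and at 0.447, 0.395 and 0.318 CPM in Ler, groups that did not overlap but a log2 fold change of 0.97 (SE 0.40) that missed the threshold (adjusted p = 0.0688). This difference was called when C24 and Ler were fitted alone (adjusted p = 0.0481). A WAK4 level rested on 4 to 27 reads a library throughout.

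The sums of other lists separated these parents as well. The ageing leaf list (SAG12, SAG13, SWEET15 and SAG21) summed to between 228 and 337 CPM in C24 and between 14.2 and 39.5 in Ler, with SAG12 at 0 in both. The root list summed to between 298.3 and 420 CPM in C24 and between 66.4 and 125 in Ler, and EXPA7 was at 0 in C24. The shoot apex and flower list was at 26.6 to 26.9 CPM in C24 and 82.3 to 96.4 in Ler. Within that list STM was uneven in Ler, at 9.70, 40.2 and 48.5 CPM. Ler replicate 1, with the lowest STM, had the highest WAK1, WAK2 and WAK3 of the Ler libraries. PYK10 carried the root sum, at 329 ± 64.7 CPM in C24 and 68.0 ± 24.1 in Ler (n = 3 each), while SHR was at 15.5 ± 0.986 and 24 ± 11.8 CPM, and the median log2 fold change of the root list was -0.63. Called higher in C24 were 2 of 3 tested ageing leaf genes, 1 of 5 root genes and 0 of 5 shoot apex genes, and called lower were 1, 1 and 4 of them. Over all genes 22.6% were higher and 19.8% lower, and the root counts are near these shares. Their part in the WAK differences was not tested. In RNA from whole rosettes, fewer cells of a type and less RNA per cell cannot be told apart.

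The hybrid comparison asks where an F1 plant stands relative to its parents. Its contrasts use the same hybrid libraries, and those with C24 and with Ler also share parents with the comparison above, so they are not independent of each other. WAK1 was at 274, 164 and 184 CPM in the hybrid and WAK2 at 246, 177 and 187 CPM. For both genes every hybrid library lay below every C24 library and above every Ler library. WAK1 was lower than in C24 (log2 fold change -1.39, SE 0.26, adjusted p = 0.00187) and higher than in Ler (2.24, SE 0.27, adjusted p = 0.00013). WAK2 was higher than in Ler by 1.85 (SE 0.21, adjusted p = 8.62e-05), and its difference from C24, -0.50 (SE 0.20), missed the threshold (adjusted p = 0.0763). That difference from C24 was called in a fit of C24 and the hybrid alone, with adjusted p = 0.0133, and without hybrid replicate 1, with adjusted p = 0.0456.

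WAK3 and WAKL10 stood nearer to Ler than to C24. WAK3 was at 0.817, 1.37 and 1.5 CPM in the hybrid, or 16, 28 and 32 reads, all far below C24 and all above Ler. It was lower than in C24 (log2 fold change -4.85, SE 0.36, adjusted p = 3.64e-06) and higher than in Ler (2.07, SE 0.51, adjusted p = 0.011). That second call did not hold when Ler and the hybrid were fitted alone (adjusted p = 0.0741), and without Ler replicate 1 the log2 fold change was 3.32. WAKL10 was at 0.306, 0.293 and 0.235 CPM in the hybrid, below every C24 library and within the range of Ler. Its log2 fold change was -3.72 against C24 (SE 0.44, adjusted p = 8.79e-05) and -0.83 against Ler (SE 0.49, adjusted p = 0.227), and the difference from Ler was called without Ler replicate 2 (adjusted p = 0.028). WAK4 was at 0.204, 0.536 and 0.329 CPM in the hybrid, below every C24 library and overlapping Ler, and was called against neither parent (adjusted p = 0.0587 against C24 and 0.882 against Ler). Without hybrid replicate 2 its difference from C24 was called, with adjusted p = 0.0347. In all, 3 of 5 members were lower in the hybrid than in C24, where 19.3% of all genes were lower, 17.2% higher and 36.6% called either way. Relative to Ler 3 of 5 were higher, where 15.8% of all genes were higher, 14.4% lower and 30.3% called either way. WAK4 and WAKL10 entered both counts through their C24 reads. A higher call in the hybrid than in C24 could hardly arise for them, and with Ler and the hybrid alone they did not pass the filter.

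Against the mid-parent, the mean of both parents on the log scale, WAK2 was higher in the hybrid (log2 difference 0.68, SE 0.17, adjusted p = 0.0145). WAK3 was lower (-1.39, SE 0.40, adjusted p = 0.0246), and so was WAKL10 (-2.28, SE 0.43, adjusted p = 0.00347). The background was 15.5% of genes higher and 11.5% lower, 27.1% in all. WAK1 had a log2 difference of 0.43 (SE 0.22, adjusted p = 0.181) and WAK4 one of -0.59 (adjusted p = 0.279). The WAK2 call ended without hybrid replicate 1 (adjusted p = 0.0982). The WAK3 call ended without Ler replicate 1, where the difference was -0.76 (adjusted p = 0.166), and without hybrid replicates 1 and 2 in turn (adjusted p = 0.0918 and 0.0557).

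The scale of the mid-parent mattered for WAK1. Against the arithmetic mean of the parents' CPM, with no test, the hybrid mean was at 70.6% for WAK1 (libraries from 55.9% to 93.3%), so the WAK1 difference turned from above to below the mid-parent. WAK2 was at 118% of that mean (103% to 143%), WAK3 at 6.82% (4.54% to 8.35%) and WAKL10 at 13.2% (11.1% to 14.5%), each in the same direction as on the log scale. All 7 rosette leaf genes were higher in the hybrid than in C24, and the ageing leaf list was at 17.2 to 28.5 CPM and the shoot apex and flower list at 3.52 to 5.92 CPM. STM carried the last list's gap to C24, at 24.3 ± 1.43 CPM in C24 and 0.399 ± 0.302 in the hybrid (n = 3 each). Of the 5 tested genes of that list, 2 were higher and 1 lower than in C24 (median log2 fold change 0.24), and 5 were lower than in Ler. Over all genes 17.2% were higher and 19.3% lower than in C24, and 14.4% were lower than in Ler. The part of these lists in the hybrid's WAK levels was not tested.

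**Figure D2:**
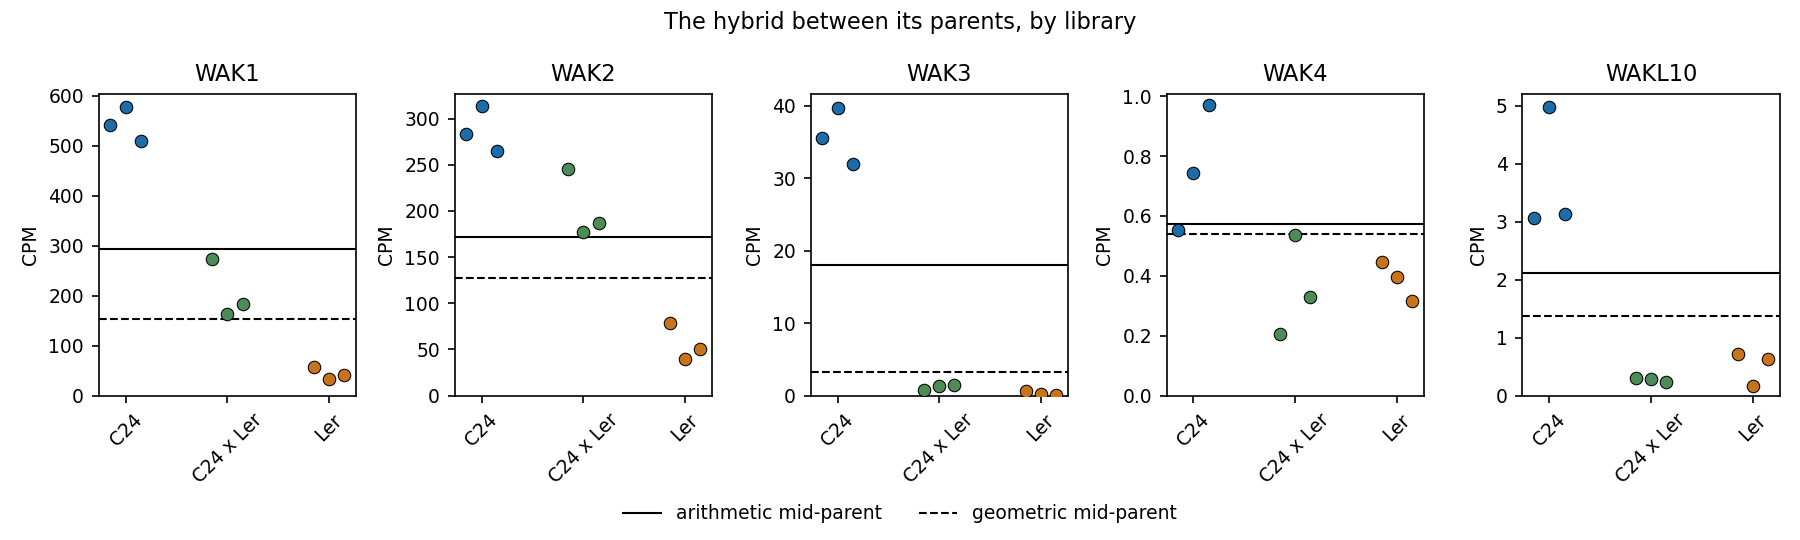
Levels of WAK1, WAK2, WAK3, WAK4 and WAKL10 in C24, C24 x Ler and Ler, in CPM, one panel a gene. Points are libraries, and the lines mark the arithmetic (solid) and the geometric (dashed) mean of the parents; WAK2 lies above both in all 3 hybrid libraries, and WAK3 and WAKL10 lie below both.

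Ler NahG against Ler asks what the salicylate hydroxylase changes in an accession whose WAK levels are already low. WAK1 was at 2.64, 3.02 and 5.57 CPM in Ler NahG, against 57.8, 33.0 and 40.8 CPM in Ler. Every NahG library was below every Ler library, by 11.7-fold in the fit (log2 fold change -3.55, SE 0.31, adjusted p = 0.000162). WAK1 was the 1 called member of 5, where 0.502% of all 20325 genes were called lower, 0.0886% higher and 0.59% in either direction. WAK3, WAK4 and WAKL10 were among the 5 only through reads in other first-stage groups. With Ler and Ler NahG alone, only WAK1 and WAK2 passed the filter, and WAK1 kept its call (adjusted p = 0.023). WAK2 was at 29.2, 28.6 and 30.2 CPM in Ler NahG, below the 78.9, 40.1 and 50.1 CPM of Ler in every library. Its log2 fold change of -0.94 (SE 0.21) had an adjusted p = 0.0961, and it was called with DESeq2 (adjusted p = 0.0016) and without Ler replicate 2 (adjusted p = 0.0244).

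The other members had few reads in Ler to begin with. WAK3 was at 0.206, 0.183 and 0.0845 CPM in Ler NahG, or 5, 4 and 2 reads, within the range of Ler (adjusted p = 0.829), and 3 reads in 1 library are worth 0.108 to 0.153 CPM. WAKL10 was at 0.247, 0.183 and 0.211 CPM (log2 fold change -1.20, SE 0.50, adjusted p = 0.572), and WAK4 at 0.247, 0.275 and 0.507 CPM (-0.16, SE 0.43, adjusted p = 0.968), both overlapping Ler. Of 14 tested genes in the lists for root, shoot apex and flower, ageing leaf and the PR1 check, 0 were called in Ler NahG. Over all genes 0.59% were called. The ageing leaf list was at 9.12 to 15.7 CPM in Ler NahG and 14.2 to 39.5 in Ler. STM was uneven in both groups, at 26.4, 8.61 and 44.1 CPM in Ler NahG and 9.70, 40.2 and 48.5 in Ler.

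The C24 NahG lines ask the same in the accession where the WAKs are high. Both lines are compared with the same C24B libraries, so their fold changes are not independent. WAK1 was at 568 and 435 CPM in C24B, 25.3 and 28.3 CPM in line 2, and 23.2 and 30.8 CPM in line 3. All NahG libraries were far below both controls, with log2 fold changes of -4.22 and -4.21 in lines 2 and 3 (SE 0.21 for each, adjusted p = 5.87e-05 and 4.89e-05). WAK2 was at 320 and 234 CPM in C24B, 41.5 and 37.8 CPM in line 2 and 39.5 and 40.4 CPM in line 3. The gap was again wider than the spread within groups, with log2 fold changes of -2.81 (SE 0.17, adjusted p = 0.000129) and -2.79 (SE 0.17, adjusted p = 0.00011).

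WAK3 was at 23.6 and 16.9 CPM in C24B, 0.215 and 0.548 CPM in line 2 and 0.377 and 0.154 CPM in line 3. It fell to 24 reads over the libraries of line 2 and 16 over those of line 3, with log2 fold changes of -5.72 (SE 0.43, adjusted p = 0.000251) and -6.26 (SE 0.46, adjusted p = 0.000187). Leaving out line 2 replicate 2 gave -6.53 and leaving out line 3 replicate 1 gave -7.01. WAKL10 was at 2.26 and 3.25 CPM in C24B, 0.522 and 0.645 CPM in line 2 and 0.103 and 0.677 CPM in line 3, with no overlap between controls and lines. It was called in line 3 (log2 fold change -2.79, SE 0.68, adjusted p = 0.042) and not in line 2 (-2.24, SE 0.65, adjusted p = 0.0877), and the test of line 3 against line 2 gave no difference past the threshold (-0.55, SE 0.72). Neither side of that threshold was firm: the line 3 call ended without line 3 replicate 1 (-2.02, adjusted p = 0.098) and in a fit of line 3 and C24B alone (adjusted p = 0.0855), and was at -4.67 without line 3 replicate 2. In line 2 WAKL10 was called without a filter on low counts (adjusted p = 0.014), with DESeq2 (0.0296), with line 2 and C24B alone (0.0281) and without C24B replicate 1 (0.0429).

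WAK4 was at 0.740 and 0.861 CPM in C24B, 0.461 and 0.419 CPM in line 2 and 0.514 and 0.492 CPM in line 3. Both lines lay below the controls in every library, and neither difference passed the test (-0.86, SE 0.48, adjusted p = 0.336, and -0.67, SE 0.48, adjusted p = 0.384). In all, 3 of 5 members fell in line 2, where 7.1% of 20112 genes fell, 1.11% rose and 8.21% were called either way. In line 3, 4 of 5 fell, where 8.16% of genes fell, 2.09% rose and 10.3% were called either way. None of the 5 rose in either line. Between the lines none of the members was called, nor any other gene in the edgeR fit of the 6 libraries, with 590 genes at an unadjusted p under 0.05. Over all genes DESeq2 called 13, and edgeR called 13 with no filter on low counts, 3 with the compared groups alone and 1 without line 3 replicate 1. WAK1 and WAK2 each differed by 0.01 on the log2 scale between the lines (SE 0.19 and 0.17).

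The ageing leaf list was at 103.5 to 202.5 CPM in C24B, 12.1 to 28.7 in line 2 and 6.46 to 17.5 in line 3, with SAG12 at 0 in both lines, and 2 of its 4 genes fell in line 2 and 4 in line 3. Over all genes 7.1% fell in line 2 and 8.16% in line 3, where 2.09% rose. The root list was at 177.6 to 353.8 CPM in C24B, 371 to 455 in line 2 and 577 to 585 in line 3, without overlap, and 1 of its 5 tested genes, PYK10, rose in line 3 (adjusted p = 0.0498). The part of either list in the WAK differences was not tested. The controls differed from each other in the shoot apex and flower list, which summed to 1.91 CPM in 1 C24B library and 23.7 in the other, and was at 25.7 to 42.7 CPM in the lines. STM carried this difference, at 0.467 and 21.9 CPM in C24B and at 22.6 to 39.8 CPM in the lines. None of the 5 tested genes of that list was called in either line. Without either C24B library in turn, WAK1, WAK2 and WAK3 kept their calls in both lines.

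**Figure D3:**
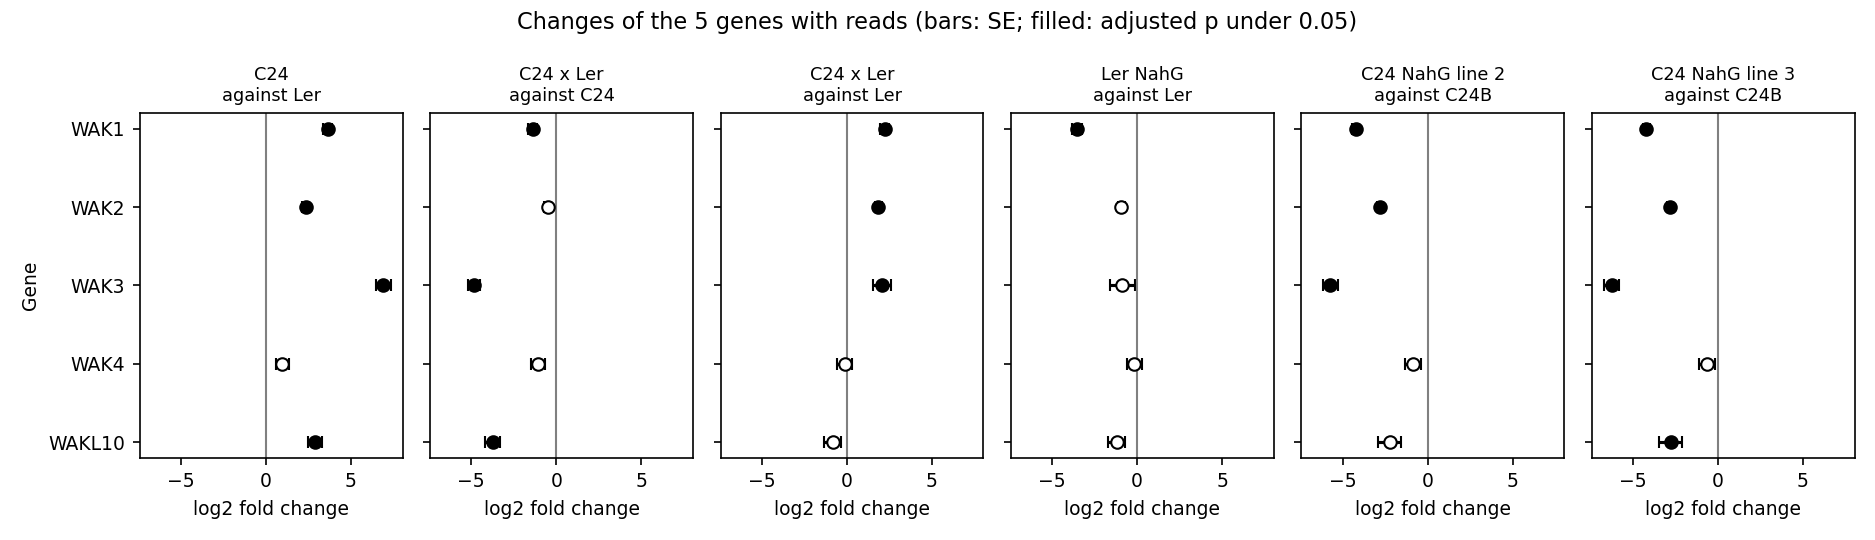
Log2 fold changes of the tested members in 6 comparisons, with bars of 1 SE. Filled points have an adjusted p under 0.05 and open points do not; WAK1 is filled below 0 in Ler NahG and both C24 lines, while WAK4 is open throughout.

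Whether NahG moves a member more in C24 than in Ler was tested as the difference of the log2 fold changes, taking each within its own stage and the mean of both lines for C24. WAK2 had the lower fold change in C24, with a difference of -1.85 (SE 0.29, adjusted p = 0.00108), which was past the threshold under all 17 alternatives. WAK3 also had a lower value in C24, with a difference of -5.12 (SE 1.07, adjusted p = 0.00801), which ended without Ler NahG replicate 1 (adjusted p = 0.0534) and was -6.38 without Ler replicate 1. In Ler this gene had only 21 reads before and 11 with NahG, so a fall in Ler was limited by the depth. For WAK1 the difference was -0.66 (SE 0.38, adjusted p = 0.285), for WAKL10 -1.30 (SE 0.81, adjusted p = 0.32) and for WAK4 -0.59 (adjusted p = 0.522). The 2 called of 5 compare with 6.78% of 21061 genes called lower, 2.03% higher and 8.8% in either direction. Accession and stage change together in this comparison and cannot be told apart.

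The balance of WAK1 and WAK2, which sit next to each other, followed the groups. There were 1.89 ± 0.0431 WAK1 reads for each WAK2 read in C24 (n = 3) and 1.81 ± 0.0564 in C24B (n = 2), against 0.79 ± 0.0498 in Ler (n = 3). The hybrid was at 1.01 ± 0.0959 (n = 3), between its parents. With NahG the ratio was 0.127 ± 0.0506 in Ler (n = 3), 0.68 ± 0.0979 in line 2 and 0.675 ± 0.124 in line 3 (n = 2 each). Within each stage the groups did not overlap in any of the 6 comparisons made, with the hybrid above Ler and the NahG lines below C24B. The ratio was 6.53-fold lower in Ler NahG than in Ler, and 2.68-fold and 2.71-fold lower in lines 2 and 3 than in C24B. The two-sided exact permutation test gave p = 0.1 for each first-stage comparison and p = 0.333 for each line, adjusted to 0.15 and 0.333 over the 6 comparisons, and these are the smallest values that 3 against 3 and 2 against 2 libraries can give. Since WAK1 and WAK2 share stretches of sequence, a ratio of reads assigned to each is also a result of how such reads were assigned.

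**Figure D4:**
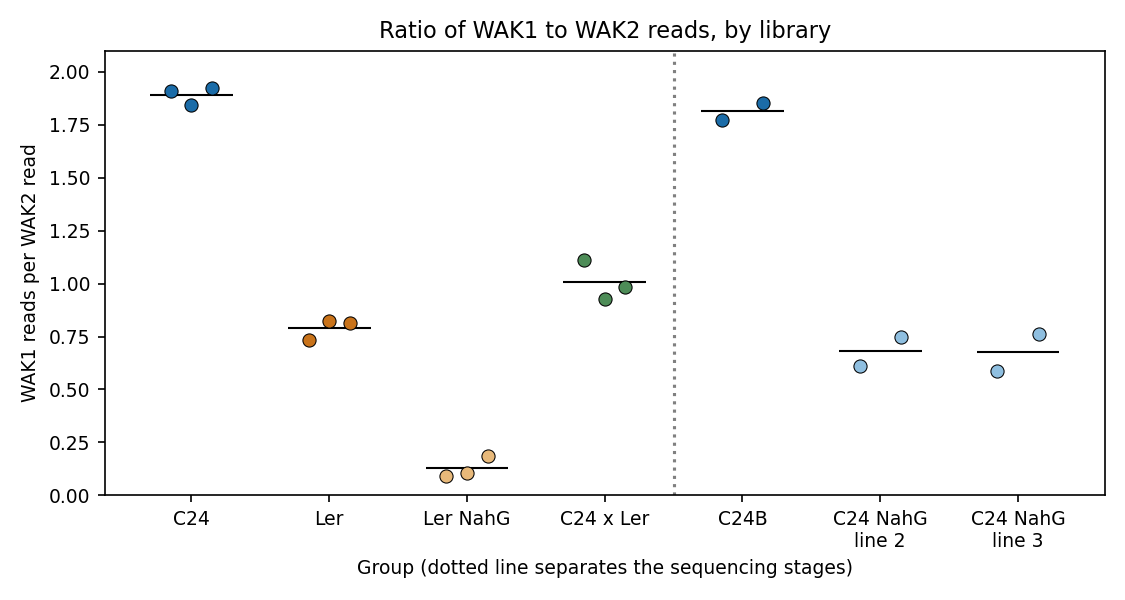
WAK1 reads per WAK2 read in each library. Points are libraries and lines are group means; the 3 Ler NahG libraries sit between 0.0904 and 0.185, below all others, and the C24 and C24B libraries are the highest.

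The wider WAK-like family and the proteins that work with WAKs were counted from lists. The family list held 21 genes other than the 6 members, of which 13 were tested in the first stage and 10 in the later. Between the parents, 8 were higher in C24 and 3 lower (22.6% and 19.8% of all genes), with a median log2 fold change of 0.95 against -0.012 over all genes tested. WAKL4 (AT1G16150; 5.76, SE 0.34, adjusted p = 1.49e-07) and AT1G16260 (3.11, SE 0.23, adjusted p = 9.19e-07) were the 2 with the lowest p. WAKL2 (AT1G16130) went the other way: it had 0 reads in the C24 libraries and was at 0.983 ± 0.276 CPM in Ler (n = 3), at least 25.2-fold higher against 3 counts over the C24 group. With WAKL2 at that bound the list's median was 0.95.

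In Ler NahG, 2 of the 13 tested family genes fell and none rose (0.502% and 0.0886% of all genes), with a median of -0.42 against 0.0025 over all genes tested. AT1G16260 was at 4.17 ± 1.81 CPM in Ler and 0.822 ± 0.187 in Ler NahG (n = 3 each; log2 fold change -2.33, SE 0.30, adjusted p = 0.00457). AT1G69730 was at 14.2 ± 4.08 and 4.00 ± 1.40 CPM (-1.83, SE 0.25, adjusted p = 0.00594). Both calls ended when these 2 groups were fitted alone (adjusted p = 0.152 and 0.176), and that of AT1G69730 also without Ler NahG replicate 1 (adjusted p = 0.0503). With these groups alone 9 family genes passed the filter. In the C24 lines 6 of 10 fell and none rose in each, where 7.1% and 8.16% of all genes fell in lines 2 and 3, with medians of -1.26 in line 2 and -1.17 in line 3, against -0.0035 and -0.013 over all genes tested. AT1G69730 was at 61.1 ± 19.6 CPM in C24B, 3.70 ± 0.0298 in line 2 and 3.84 ± 0.0509 in line 3 (n = 2 each), with log2 fold changes of -4.04 and -3.99 (adjusted p = 0.000111 and 9.65e-05). WAKL6 (AT1G16110) was at 17.9 ± 1.23, 3.47 ± 0.304 and 2.42 ± 0.0239 CPM in the same groups (-2.36 and -2.89, adjusted p = 0.00024 and 0.00011). The NahG difference between accessions was lower in C24 for 4 of 13 family genes and higher for none (6.78% and 2.03% of all genes), led by WAKL6 (-2.06, SE 0.28, adjusted p = 0.000422) and AT2G23450 (-1.04, SE 0.16, adjusted p = 0.001).

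In the hybrid, 3 of 13 family genes were higher and 5 lower than in C24, where 17.2% of all genes were higher and 19.3% lower. Relative to Ler 6 were higher and 1 lower, where 15.8% of all genes were higher and 14.4% lower. The 3 became 1 without C24 replicate 3 or with C24 and the hybrid alone, the 5 became 3 without hybrid replicate 2, and the 1 lower than in Ler, AT3G53840, was lost in 10 of 11 alternatives. WAKL4 was at 12.9 ± 2.65 CPM in C24, 4.16 ± 0.867 in the hybrid and 0.236 ± 0.136 in Ler (n = 3 each), and differed from both parents (-1.64, adjusted p = 0.000535, and 4.12, adjusted p = 9.54e-06). AT1G16260 was higher than in Ler by 2.35 (adjusted p = 3.01e-05). WAKL2 was at 0.993 ± 0.555 CPM in the hybrid, against 0 reads in C24, at least 25.4-fold higher. On the log scale 5 family genes were above the mid-parent and none was called below it, where 15.5% of all genes were higher and 11.5% lower. WAKL2 is 1 of the 5, and its C24 level of 0 sets its log mid-parent, so its p is not given. Its hybrid mean was at 202% of the arithmetic mean of the parents, 0.993 against 0.491 CPM, with hybrid libraries from 0.423 to 1.53 CPM. WAKL4 was above the log mid-parent (adjusted p = 0.00522) but at 63.2% of the arithmetic one, so its direction turned with the scale. The hybrid was at 106% (AT1G16260), 121% (AT1G69730) and 132% (AT5G66790) of the arithmetic mean for the remaining genes. Without hybrid replicate 1 the 5 became 2.

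The list of WAK partners and pectin genes held 15 genes, 14 of them tested, with kinases and oxidases downstream of oligogalacturonides, glycine-rich ligands of WAK1, pectin enzymes and inhibitors, and NPR1. NPR1 (AT1G64280), a salicylic acid receptor and a coactivator of defence genes, was at 49.9 ± 1.61 CPM in C24 and 21.7 ± 1.79 in Ler (n = 3 each), a log2 fold change of 1.20 (adjusted p = 4.64e-07). It was at 46.9 ± 3.35 CPM in C24B, 19.2 ± 0.21 in line 2 and 17.1 ± 0.155 in line 3 (n = 2 each), and fell by 1.29 and 1.46 (adjusted p = 0.000522 and 0.000271). In Ler NahG it was at 18.2 ± 0.314 CPM and was not called (adjusted p = 0.366), and the difference of the NahG effects was -1.11 (SE 0.11, adjusted p = 4.87e-05). None of the 14 was called in Ler NahG by edgeR (median -0.21). In line 2, 7 fell and 2 rose (median -0.61), where 7.1% of all genes fell and 1.11% rose, and in line 3, 6 fell and 1 rose (median -0.48), where 8.16% fell and 2.09% rose. AT4G20830 fell in both (-1.41 and -1.43, adjusted p = 0.000621 and 0.00055), was higher in C24 than in Ler (1.67, adjusted p = 8.53e-06), and had a lower NahG effect in C24 than in Ler (-1.17, SE 0.22, adjusted p = 0.00402).

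GRP-3 (AT2G05520), the glycine-rich protein known to bind the extracellular part of WAK1, is given for that role and not by its p. In line 2 its log2 fold change was -1.0 (SE 0.16, adjusted p = 0.00857), a call that ended without either library of that line (adjusted p = 0.0709 and 0.111). The value of GRP-3 for line 3 was -0.60 (SE 0.16, adjusted p = 0.0541). GRP3S (AT2G05380), another glycine-rich protein gene of the list, went the other way. It was at 7.29 ± 0.256 CPM in C24B, 16.8 ± 6.17 in line 2 and 15.2 ± 3.66 in line 3 (n = 2 each). It was called higher in line 2 (adjusted p = 0.0371), a call lost in 2 of 9 alternatives. Between the parents GRP3S was lower in C24, at 35.9 ± 3.44 CPM against 86.3 ± 41.4 in Ler (n = 3 each, adjusted p = 0.0144). Between the parents 9 of 14 partner genes were higher in C24 and 2 lower, with a median of 1.06, where 22.6% of all genes were higher and 19.8% lower. In the hybrid 1 was higher and 6 lower than in C24 (17.2% and 19.3% of all genes), with ATBETAFRUCT4, a vacuolar invertase, at 0.73 (SE 0.07, adjusted p = 3.37e-05) and AT1G26380 at -5.56 (SE 0.48, adjusted p = 9.38e-06). Relative to Ler, 7 were higher and 2 lower in the hybrid (15.8% and 14.4% of all genes), with NPR1 at 0.70 (adjusted p = 0.000105) and RBOHD, an oxidase that makes reactive oxygen in defence, at 0.86 (adjusted p = 0.000529). Against the log mid-parent 2 were higher and 2 lower, near the 15.5% and 11.5% of all genes.

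Likeness of pattern was measured by Pearson's r of log2 CPM over the 18 libraries, after centring each gene within its stage, among the 7484 named genes whose log2 CPM averaged 1 or more. The libraries within a group share genotype and stage, so r mostly follows differences between groups, and it is given as a description. WAK1 was most like CYP72A8 (r = 0.986), a cytochrome P450, and WRKY70 (0.982), a transcription factor. WAK2 was most like MEK1 (0.996), a MAP kinase kinase, and CAD1 (0.992), the phytochelatin synthase. WAK3 was most like PAD4 (0.988), a regulator of defence, and NUDT6 (0.985), a Nudix hydrolase. WAKL10 was most like ABCG40 (0.945), a transporter, and SBT3.3 (0.942), a subtilase. For the scarce WAK4 the highest values were lower, FMO1 at 0.863 and PAD3 at 0.832. Among the members, WAK1 and WAK2 were at 0.963, WAK2 and WAK3 at 0.891 and WAK1 and WAK3 at 0.844, and the lowest pair was WAK2 with WAK4 at 0.575.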

How the data were processed

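RNA-seq of 18 rosette pools was analysed from the whole-number read counts per gene that the authors deposited, in 1 table with 1 column per library. Per the submitters' processing notes the tools were STAR 2.5.3 and DESeq2 and the build TAIR10, while strand setting and read length are not given in the sources used here. Symbols of 37051 rows (99.2%) came from a RefSeq table of TAIR10.1, the 6 members included, and coordinates and sequences from the RefSeq TAIR10.1 genome. The rows of reads outside genes were left out of library sizes and tests, among them 3.47% to 4.85% of reads ambiguous between genes.

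Groups came from the labels. The 12 first-stage and the 6 later libraries were each fitted in R 4.3.3 with edgeR 4.0.16 (filterByExpr by group, TMM scaling, quasi-likelihood F test with 1 coefficient per group, Benjamini-Hochberg over all genes tested), and the difference of NahG effects in a fit of all 18. The SE was taken from the F statistic, whose square root is the size of the log2 fold change over its SE. Every adjusted p is from that test unless DESeq2 1.42.0 is named, and covers the spread between pools. Log levels used a prior count of 2. The steps were tested on simulated data. Identities came from pairwise alignment in Biopython 1.88. Alternatives were DESeq2's size factors and Wald test, no filter, a replicate block, the compared groups alone, each library left out and an arithmetic mid-parent for members and family genes, the last chosen after seeing the data.

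Members and lists were chosen with earlier results of these data known. Named were the 6 members, from each list the 2 genes with the lowest adjusted p under 0.05 in a comparison, PR1, and the 2 genes most like each member; not all the rule allows are printed. GRP-3, GRP3S, NPR1 in Ler NahG, PYK10, SHR, STM, AT3G53840, the family genes against the arithmetic mid-parent and the pseudogene AT1G21260 are outside it and were added after their values were seen.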

Additional observations from a re-analysis of the deposited data

Results flagged for a closer look

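The effect of NahG differed between the accessions for WAK2 and WAK3, by the test of the difference itself. For WAK2 the log2 fold change in C24, the mean of both lines against C24B, minus that in Ler was -1.85 (SE 0.29, adjusted p = 0.00108). The C24 lines were at 39.6 ± 2.63 and 39.98 ± 0.618 CPM (n = 2 each) against 277 ± 60.8 in C24B (n = 2), and Ler NahG was at 29.3 ± 0.81 against 56.4 ± 20.1 CPM in Ler (n = 3 each). For WAK3 the difference was -5.117 (SE 1.07, adjusted p = 0.00801), with 0.382 ± 0.235 and 0.265 ± 0.158 CPM in the lines against 20.3 ± 4.71 in C24B, and 0.158 ± 0.0646 against 0.303 ± 0.328 CPM in Ler. The WAK3 call ended without Ler NahG replicate 1 (adjusted p = 0.0534), and with 21 reads in the Ler libraries a fall as large as that in C24 could not have been seen there. Accession and sequencing stage change together in both differences and cannot be told apart.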

How the results depend on the processing

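Of 102 recounts of the called members, 98 were within 1.5 times the reported count. In Ler NahG 2 members instead of 1 were called with DESeq2, and 1 to 2 when each library was left out in turn. Against the mid-parent 1 to 3 were called with a library left out, and for the difference between accessions 1 to 2. Of 509 values of single members, 474 kept their direction and their side of the threshold, 8 lost and 13 gained a call, 3 moved by more than the spread between libraries (WAK2, WAK3 and WAKL10 against the arithmetic mid-parent), and 11 turned in direction, none of which was a call in the reported or the alternative fit. With a library left out these ran from -1.39 to 0.39 for WAK3 and from -0.55 to 0.022 for WAK4 in Ler NahG, and from -0.52 to 0.15 for WAK4 in the hybrid against Ler. Between the C24 lines they ran from -0.20 to 0.20 for WAK1, -0.056 to 0.083 for WAK2, -1.28 to 0.27 for WAK3 and -2.45 to 0.21 for WAKL10. WAK1 against the arithmetic mid-parent was at -0.50. WAK1 in Ler NahG kept its call in all 11 alternatives, from -3.95 to -3.30. Replicate numbers were shared by groups but are not known to pair samples: deviations of same-numbered libraries correlated at -0.18 to 0.43 in the first stage (3 of 18 pairs over 0.1) and 0.03 to 0.12 in the later (4 of 6). With the replicate block the members called were 1 in Ler NahG, 4 between the parents, 4 and 3 in the hybrid against C24 and Ler, 3 against the mid-parent, 4 in each C24 line and 2 for the difference. It added WAK2 in the hybrid against C24 (-0.52, adjusted p = 0.0438) and WAKL10 in line 2 (-2.22, adjusted p = 0.0474). Of all 20325 genes the block called 114 in Ler NahG and 8417 between the parents. For the hybrid it called 7204 against C24, 5989 against Ler and 5341 against the mid-parent. In lines 2 and 3 it called 2294 and 3069 of 20112 genes, up from 1651 and 2062, and for the difference 2091 of 21061. Counts over all genes moved more: 120 called in Ler NahG became 21 with the compared groups alone and 278 with DESeq2, 1651 in line 2 ranged from 645 to 4268, 2062 in line 3 from 611 to 5324, 6149 for the hybrid against Ler from 3949 to 7608, 5500 against the mid-parent from 2810 to 6771, and 1854 for the difference from 812 to 3533. Except where a fit used fewer samples or tested other genes, the cause was not tested. Depth limits WAK4, WAKL10 and, outside C24, WAK3, where 3 reads in a library are 0.0922 to 0.153 CPM.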

Other observations

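Between WAK1 and WAK2, at chr1:7442218-7442979 on the minus strand (TAIR10.1), lies the pseudogene AT1G21260, which was picked out after its values were seen. It was at 5.28 ± 0.618 CPM in Ler and 6.00 ± 0.592 in Ler NahG (n = 3 each), levels that were not called different (log2 fold change 0.19, SE 0.15, adjusted p = 0.811). It was lower in C24, at 0.93 ± 0.144 CPM (n = 3; -2.49, SE 0.17, adjusted p = 4.15e-07), and between the parents in the hybrid, at 3.54 ± 0.206 CPM. WAK1 and WAK2 were highest in C24, so this neighbour ranked the parents the other way. In C24B it had 31 reads, in line 2 1 read, a ratio of 34.5 (95% counting interval 5.76 to 1410), and in line 3 0 reads, at least 11.2-fold lower against 3 counts over the group. It was called in line 3 (adjusted p = 0.0357) and not in line 2 (adjusted p = 0.0594). Without a stated strand setting, its reads and those of genes on the other strand cannot be told apart. Another pseudogene of the cluster, AT1G21220, lies between WAK4 and WAK5 and was called in none of the 9 comparisons.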
